A study of Mus musculus with 6 samples.

Results

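Cytotoxic lymphocytes carry secretory lysosomes, called cytolytic granules, that hold perforin and a family of serine proteases, the granzymes, packed on a proteoglycan matrix. On contact with a target the granules fuse with the plasma membrane, perforin opens the target membrane, and the granzymes enter and cleave proteins of the target. Among spleen T cells this machinery is best known from CD8+ T cells, and some activated CD4+ T cells also carry parts of it. Transcripts of 10 genes of this machinery were described here in 6 RNA-seq libraries of induced T (iT) cells. The genes were chosen by name: the granzymes Gzma, Gzmb, Gzmk and Gzmm, the pore former Prf1, the granule membrane proteins Nkg7 and Lamp1, the matrix proteoglycan Srgn, the granzyme B inhibitor Serpinb9 and the granule cysteine protease Ctsw. They are 10 of 23420 rows in the expression table, and each was found under its name.

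The iT cells were either CD4 single-positive, here CD4SP, or CD8 single-positive, here CD8SP, with 3 libraries of each and 1000 sorted cells per library. Both kinds grew in irradiated young adult B-NDG mice, an immunodeficient strain without T, B and NK cells of its own, after transplantation of hematopoietic progenitors. These progenitors came from C57BL/6 embryonic stem cells (iR9-ESC) with a Runx1-p2a-Hoxa9 cassette under a doxycycline-responsive promoter at the Rosa26 locus. Doxycycline was given in culture before transplantation, and all libraries share the cassette, the strain and the tissue, spleen. Cells were sorted as donor CD45.2+ cells negative for Ter119 and CD11b, among other markers, with a positive gate on CD4 or CD8 and no stated exclusion of NK1.1+ or TCRγδ+ cells. No T cells of natural origin were analysed here, so each level is compared only between the iT populations. The paper's heatmap legend describes each library as a biological replicate. Whether same-numbered CD4SP and CD8SP libraries came from the same mouse is not stated, and the p-values measure the spread between these libraries.

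Values are TPM, a measure of transcript abundance that divides reads by transcript length, which lets levels of different genes be set side by side. Such comparisons are approximate, since amplification and estimation can differ between genes, which was not tested. In CD4SP libraries, for instance, Cd3e averaged 48.4 TPM beside 1038 TPM for Cd3d and 1051 TPM for Cd3g. Each library summed to between 997896 and 998100 TPM, the sequencing depth behind it is unknown, and CD4SP libraries listed 10329 to 10649 genes at 1 TPM or more against 9971 to 10149 in CD8SP libraries. The sort was checked on lineage genes: Cd4 was listed at 279 to 331 TPM in CD4SP and at no more than 0.104 TPM in CD8SP libraries, and Cd8a at no more than 2.93 TPM in CD4SP and at 1038 TPM or more in CD8SP libraries. Cd8b1 was at 24.3 to 36.0 TPM in CD4SP and at 2197 TPM or more in CD8SP libraries. Ribosomal protein transcripts took 25.0% to 29.9% of TPM in CD4SP and 33.2% to 37.1% in CD8SP libraries, and the median log2 difference over all 10476 tested genes was -0.28 (CD8SP minus CD4SP). Relative to that median, the 6 genes called higher in CD8SP below differed by 1.72 to 4.61, and the value of each other gene is given with it. A call required an adjusted p under 0.05 in limma and a difference over 2-fold in log2(TPM + 1), which 9.73% of tested genes met, 1.8% with the higher level in CD8SP and 7.92% with the higher level in CD4SP. Of the 1019 genes called, 18.5% were higher in CD8SP, a share that was 38.6% after median-of-ratios rescaling and 42.9% after quantile normalization, which both bring the median difference near 0. Each of the 10 granule genes passed the filter on low values, with 1 TPM or more in all 6 libraries.

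The populations differed in 7 of the 10 genes. Gzma, Gzmk, Gzmm, Prf1, Nkg7 and Ctsw were called higher in CD8SP iT cells, Srgn was called higher in CD4SP iT cells, and Gzmb, Lamp1 and Serpinb9 were not called. The median difference of the 10 genes was 1.48 on the log2 scale. In 8 of the 10 genes the libraries of the populations did not overlap, which was so for 43.2% of all tested genes. In sum the 10 transcripts took 0.557% to 0.582% of TPM in CD4SP and 1.19% to 1.23% in CD8SP libraries. In sorted bulk cells, more cells that transcribe a gene and more RNA of it per cell cannot be told apart.

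**Figure D1:**
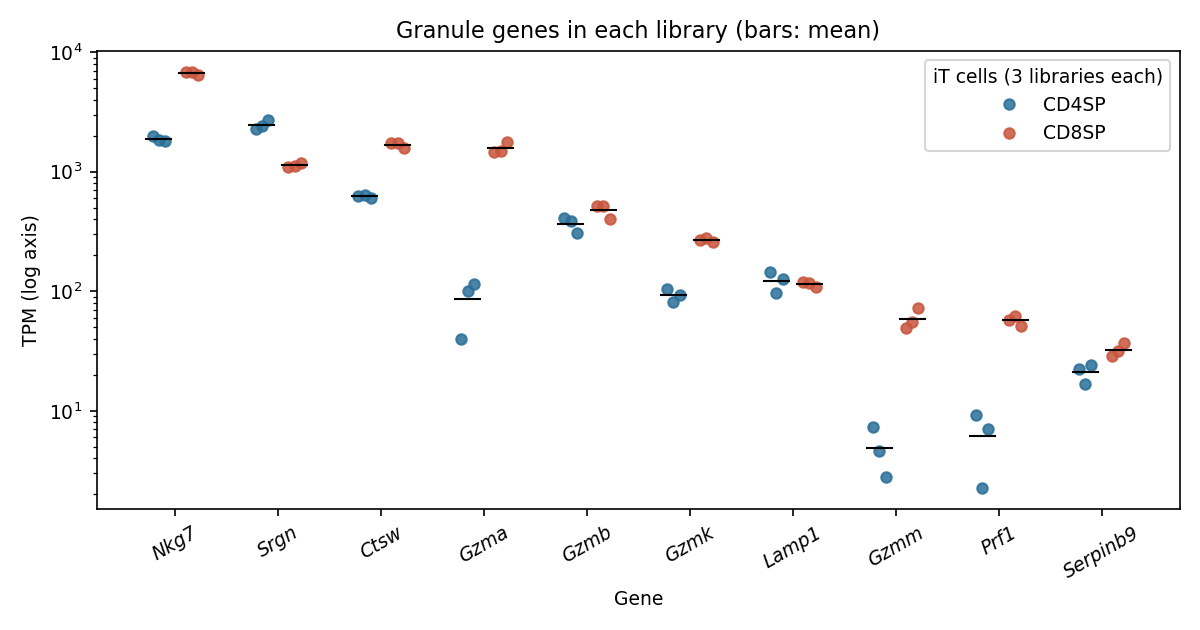
TPM of the 10 genes in each library on a log axis, with CD4SP libraries in blue and CD8SP libraries in red, replicates 1 to 3 from left to right and black bars at the mean. The CD8SP libraries of Gzma, Gzmk, Gzmm, Prf1, Nkg7 and Ctsw lie above all CD4SP libraries, those of Srgn lie below them, and those of Gzmb and Lamp1 overlap with them.

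The windows of 250 bases before the annotated start sites of 5 of these genes are shown because the genes cover the main patterns in the values: higher in CD8SP (Gzma, Prf1, Nkg7), not called (Gzmb) and higher in CD4SP (Srgn). The sequences are those of RefSeq on GRCm38.p6, read 5′ to 3′ on the strand of the gene. In the set of promoter windows used here, 9 of the 10 genes had an entry (Ctsw did not). Capitals mark matches, on either strand, to 5 short motifs: the Runx core TGTGGT, a T-box stretch GGTGTGA, the AP-1 site TGANTCA, an Ets stretch GGAAGT and the CRE TGACGTCA. Runx letters were included because the cassette, which all libraries share, encodes Runx1, and its part in these levels was not tested.
Gzma: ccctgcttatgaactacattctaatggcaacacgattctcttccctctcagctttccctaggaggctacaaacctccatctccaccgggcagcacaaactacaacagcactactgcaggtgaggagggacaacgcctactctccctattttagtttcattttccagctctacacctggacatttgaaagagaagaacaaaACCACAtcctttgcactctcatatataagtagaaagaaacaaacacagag
Gzmb: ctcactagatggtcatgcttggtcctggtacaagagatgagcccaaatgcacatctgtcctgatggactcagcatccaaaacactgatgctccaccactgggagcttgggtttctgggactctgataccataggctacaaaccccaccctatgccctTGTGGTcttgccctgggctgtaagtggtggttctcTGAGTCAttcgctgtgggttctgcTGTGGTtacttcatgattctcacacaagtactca
Prf1: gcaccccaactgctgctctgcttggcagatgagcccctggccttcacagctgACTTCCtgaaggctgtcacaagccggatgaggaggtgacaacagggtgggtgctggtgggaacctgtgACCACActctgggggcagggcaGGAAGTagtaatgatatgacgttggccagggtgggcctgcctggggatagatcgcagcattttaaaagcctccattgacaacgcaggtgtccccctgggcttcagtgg
Nkg7: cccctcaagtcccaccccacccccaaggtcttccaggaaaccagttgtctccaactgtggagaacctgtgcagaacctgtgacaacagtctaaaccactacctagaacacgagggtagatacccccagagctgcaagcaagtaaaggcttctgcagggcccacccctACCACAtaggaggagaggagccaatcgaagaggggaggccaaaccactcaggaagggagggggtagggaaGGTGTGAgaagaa
Srgn: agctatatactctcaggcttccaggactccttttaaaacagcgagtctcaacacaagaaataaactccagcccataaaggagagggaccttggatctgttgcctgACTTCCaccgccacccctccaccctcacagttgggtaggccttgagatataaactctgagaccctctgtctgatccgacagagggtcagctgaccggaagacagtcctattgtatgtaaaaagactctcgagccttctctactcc

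Gzma lies on the minus strand with its window at chr13:113100982-113101231, Gzmb on the minus strand at chr14:56262335-56262584, Prf1 on the plus strand at chr10:61297586-61297835, Nkg7 on the plus strand at chr7:43436888-43437137 and Srgn, at the first of its start sites, on the minus strand at chr10:62527446-62527695. The Runx letters were in the windows of Gzma, Prf1 and Nkg7 once and in that of Gzmb at 2 places, and were not in this window of Srgn. They were in 14% of all 32851 RefSeq promoter windows of this length. The T-box letters were in the Nkg7 window and in 3.33% of all windows, the AP-1 letters in the Gzmb window and in 6.75%, and the Ets letters in the Prf1 window, at 2 places, in the Srgn window and in 19.7%. The CRE letters were in none of the windows of the 9 genes and in 1.55% of all. Of the windows not shown, Gzmk held T-box and Ets letters, Lamp1 held Runx letters, Gzmm held Runx letters at 1 start and T-box letters at the other, the second Srgn start held Runx letters, and Serpinb9 held none of the 5. A match describes letters only and is no evidence of binding.

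Among the granzymes, Gzma, Gzmk and Gzmm were called and Gzmb was not. Gzma, a tryptase that cleaves after basic residues, is encoded on chromosome 13 (GRCm38, positions 113093825 to 113100981, minus strand, 6 exons). Its TPM was 39.8, 100.7 and 116.0 in CD4SP replicates 1 to 3 and 1471, 1497 and 1773 in CD8SP replicates 1 to 3. Every CD8SP library was above every CD4SP library, and CD4SP replicate 1 stood below the other two of its population. The mean rose from 85.5 ± 40.3 (SD, n = 3) TPM in CD4SP to 1581 ± 167 (SD, n = 3) TPM in CD8SP, a ratio of 18.5. On the log2 scale the difference was 4.33 (SE 0.35, adjusted p = 0.000140 in limma), the largest of the 10 genes. Ranked among all genes of a library, Gzma stood between 1285 and 3505 in CD4SP and between 102 and 112 in CD8SP libraries.

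Gzmb, the protease that cleaves after aspartate and activates caspases in the target cell, is encoded on chromosome 14 (56258838 to 56262260, minus strand, 5 exons). Its TPM was 412.6, 383.9 and 306.2 in CD4SP and 512.9, 520.3 and 404.2 in CD8SP libraries, and CD8SP replicate 3 fell below CD4SP replicate 1. The log2 difference was 0.38 (SE 0.15, 95% interval 0.036 to 0.73, adjusted p = 0.107 in limma), so Gzmb was not called, and its interval reaches up to a difference of less than 2-fold. Relative to the median of all genes the difference was 0.67, and after median-of-ratios rescaling it was 0.69 with an adjusted p of 0.0234, still under the fold required for a call. Gzmb was the most abundant granzyme in every CD4SP library.

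Gzmk, a tryptase like Gzma, lies 70.6 kb from Gzma on chromosome 13 (113171608 to 113225908, minus strand), with no protein-coding gene of the table between them. Its TPM was 104.6, 81.6 and 93.1 in CD4SP and 269.0, 281.3 and 258.2 in CD8SP libraries, without overlap. The means were 93.1 ± 11.5 (SD, n = 3) and 269.5 ± 11.5 (SD, n = 3), and the log2 difference was 1.53 (SE 0.13, adjusted p = 0.000165 in limma). The difference was smaller than that of its neighbour Gzma: the ratio of Gzmk to Gzma was 2.63, 0.811 and 0.803 in CD4SP and 0.183, 0.188 and 0.146 in CD8SP libraries. Beyond Gzma, Gpx8 lies at 47.4 kb and was listed at 0 in all CD4SP libraries and at 2.23, 1.78 and 2.93 TPM in CD8SP libraries. Gpx8 passed the filter on low values only through its CD8SP libraries, which fixed its direction, so no p-value is given. Beyond Gzmk, at 366 kb, Snx18, a sorting nexin, was called higher in CD4SP (log2 difference -1.50, SE 0.21, adjusted p = 0.00206 in limma). The higher levels in CD8SP of Gzma and Gzmk were thus not shared by Snx18. Genes that overlap the span of a granule gene were not considered as its neighbours.

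Gzmm, which cleaves after methionine and leucine, is encoded on chromosome 10 (79689020 to 79695261, plus strand, 5 exons). Its TPM was 7.32, 4.62 and 2.78 in CD4SP and 49.2, 55.2 and 73.0 in CD8SP libraries. All CD8SP libraries were above all CD4SP libraries, at a ratio of means of 12.1 and a log2 difference of 3.40 (SE 0.30, adjusted p = 0.000221 in limma). Cdc34, 0.622 kb before Gzmm, and Bsg, 9.23 kb after it, were not called, with log2 differences of 0.27 (SE 0.13, adjusted p = 0.167 in limma) and 0.095 (SE 0.11, adjusted p = 0.542 in limma).

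The makeup of the granzyme transcripts differed between the populations as well as their sum. The 4 granzymes summed to 564, 571 and 518 TPM in CD4SP, and CD8SP libraries reached 2302, 2354 and 2509 TPM. Gzmb made up 73.1%, 67.3% and 59.1% of that sum in CD4SP and 22.3%, 22.1% and 16.1% in CD8SP libraries. Gzma made up 7.05%, 17.6% and 22.4% in CD4SP and 63.9%, 63.6% and 70.7% in CD8SP libraries. The leading granzyme transcript was therefore Gzmb in each CD4SP library and Gzma in each CD8SP library. Gzmk took 14.3% to 18.5% in CD4SP and 10.3% to 11.9% in CD8SP, a lower share in CD8SP at a higher level, and Gzmm took 0.536%, 0.810% and 1.297% against 2.14% to 2.91%. Ratios within a library do not change when a library is multiplied by a single factor, and the ratio of Gzma to Gzmb was 0.0964, 0.262 and 0.379 in CD4SP against 2.87, 2.88 and 4.39 in CD8SP libraries. Such ratios carry no test here, since they are built from the values tested above.

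**Figure D2:**
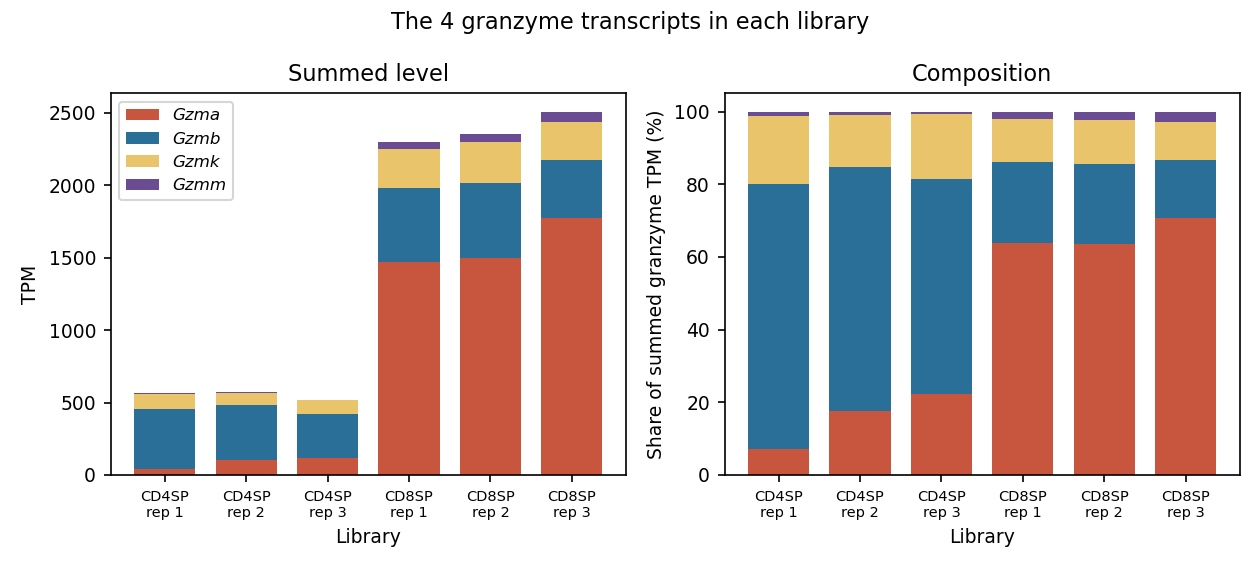
The 4 granzyme transcripts in each of the 6 libraries, as stacked TPM (left) and as percent of their sum (right), with the colours standing for the genes. Gzmb fills 59.1% to 73.1% of the CD4SP bars and Gzma 63.6% to 70.7% of the CD8SP bars.

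Of the other granzyme genes of the mouse, Gzmd, Gzme, Gzmg and Gzmn were listed at 0 in all libraries. Gzmc, a neighbour of Gzmb at 24.2 kb, had 5.47, 4.19 and 4.29 TPM in CD4SP against 5.68, 5.57 and 2.19 TPM in CD8SP libraries, with overlap, and was not called (log2 difference -0.11, SE 0.32, adjusted p = 0.821 in limma). Gzmf reached 1 TPM in too few libraries to be tested. Transcripts of Gzmb and Gzmc are 77.3% identical over 844 nt, and none of the 10 genes had a copy of at least 95% identity over 200 nt in another annotated gene.

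Prf1 encodes perforin, the pore-forming protein of the granule (chromosome 10, 61297833 to 61304680, plus strand, 3 exons). Its TPM was 9.20, 2.28 and 7.08 in CD4SP and 57.3, 62.3 and 51.7 in CD8SP libraries. The populations did not overlap, and CD4SP replicate 2 was the lowest of all. The means were 6.19 ± 3.55 (SD, n = 3) and 57.1 ± 5.29 (SD, n = 3), a ratio of 9.23 and a log2 difference of 3.16 (SE 0.38, adjusted p = 0.00106 in limma). Beside Gzmb, Prf1 was low in TPM. The ratio of Prf1 to Gzmb was 0.0223, 0.00593 and 0.0231 in CD4SP and 0.112, 0.120 and 0.128 in CD8SP libraries. CD4SP libraries thus held 306.2 to 412.6 TPM of Gzmb beside 2.28 to 9.20 TPM of Prf1. Pald1, 15.0 kb after Prf1, was listed at 0.360, 0 and 0 TPM in CD4SP against 2.55, 3.93 and 4.72 TPM in CD8SP libraries. No p-value is given for Pald1, since it passed the filter on low values only through its CD8SP libraries, which fixed its direction.

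Nkg7, a membrane protein of the granule that acts in its release, was the most abundant of the 10 transcripts in CD8SP iT cells (chromosome 7, 43437073 to 43438249, plus strand, 4 exons). Its TPM was 2005, 1827 and 1800 in CD4SP and 6788, 6884 and 6415 in CD8SP libraries. The spread within each population was small beside the gap between them. Nkg7 differed by 1.84 on the log2 scale (SE 0.096, adjusted p = 1.41e-05 in limma) and the ratio of means 3.57. Nkg7 ranked 84 to 98 among all genes in CD4SP and 18 to 28 in CD8SP libraries, so it was also an abundant transcript in CD4SP iT cells. Its neighbours Lim2 and Cldnd2, at 1.08 kb and 2.53 kb, were listed at 0 in every library.

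Lamp1 (CD107a), a lysosomal membrane glycoprotein that reaches the cell surface when granules are released and is present in lysosomes of most cells, was not called (chromosome 8, 13159161 to 13175338, plus strand, 9 exons). Its TPM was 144.8, 96.9 and 125.7 in CD4SP and 119.0, 117.0 and 109.0 in CD8SP libraries, and the populations overlapped. The log2 difference was -0.071 (SE 0.16, 95% interval -0.43 to 0.29, adjusted p = 0.771 in limma), and 0.21 relative to the median of all genes. Its sign depended on the scaling, with 0.23 after median-of-ratios rescaling. The ratio of Nkg7 to Lamp1 within a library was 13.8 to 18.9 in CD4SP and 57.0 to 58.9 in CD8SP.

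Ctsw, cathepsin W, a papain-like protease found in CD8+ T and NK cells, followed Nkg7 in both level and direction (chromosome 19, 5465043 to 5468507, minus strand, 8 exons). Its TPM was 621.6, 634.8 and 606.4 in CD4SP and 1743, 1752 and 1569 in CD8SP libraries, without overlap. Ctsw differed by 1.44 on the log2 scale (SE 0.097, adjusted p = 5.41e-05 in limma). The ratio of Ctsw to Nkg7 was 0.310 to 0.347 in CD4SP and 0.245 to 0.257 in CD8SP libraries.

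Srgn differed in the other direction. It encodes serglycin, the proteoglycan core protein whose glycosaminoglycan chains bind granzymes and perforin, and which other blood cells use in their storage granules as well (chromosome 10, 62493833 to 62527451, minus strand). Its TPM was 2267, 2407 and 2727 in CD4SP and 1100, 1107 and 1187 in CD8SP libraries. Every CD4SP library was above every CD8SP library, at a mean of 2467 ± 236 (SD, n = 3) against 1131 ± 48.6 (SD, n = 3), a ratio of 2.18. The log2 difference was -1.12 (SE 0.11, adjusted p = 0.000316 in limma), and -0.84 relative to the median of all genes. The call rests on the fold: after median-of-ratios rescaling the difference was -0.81 (adjusted p = 0.00608 in limma) and without ribosomal protein genes -0.96 (adjusted p = 0.00114 in limma), both under 2-fold. The ratio of Nkg7 to Srgn, unchanged by a single factor per library, was 0.884, 0.759 and 0.660 in CD4SP and 6.17, 6.22 and 5.40 in CD8SP libraries. Srgn was the most abundant of the 10 transcripts in each CD4SP library and the fourth in CD8SP libraries.

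Serpinb9, the intracellular serpin that inhibits granzyme B and protects the cell that carries it, was not called (chromosome 13, 33003250 to 33017957, plus strand, 8 exons). Its TPM was 22.2, 16.9 and 24.3 in CD4SP and 28.5, 31.9 and 36.7 in CD8SP libraries, without overlap. The log2 difference was 0.60 (SE 0.19, 95% interval 0.17 to 1.02, adjusted p = 0.0527 in limma), and 0.88 relative to the median of all genes. Over the alternatives the adjusted p was 0.00855 to 0.150 and the difference stayed under 2-fold. The ratio of Serpinb9 to Gzmb was 0.0539, 0.0441 and 0.0793 in CD4SP and 0.0556, 0.0612 and 0.0909 in CD8SP libraries, and the populations overlapped in it. Its close relative Serpinb9b, 89.6% identical over 480 nt, was listed at 0 in all libraries, and Serpinb6b, 24.2 kb before Serpinb9, had 66.9, 31.9 and 82.0 TPM in CD4SP against 113.1, 113.0 and 102.6 TPM in CD8SP libraries. Serpinb6b missed the call (log2 difference 0.95, SE 0.30, adjusted p = 0.0560 in limma), and passed without CD4SP replicate 3 (1.22), after median-of-ratios (1.26) or quantile scaling (1.20) and without ribosomal protein genes (1.12), and its difference was 0.56 without CD4SP replicate 2.

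**Figure D3:**
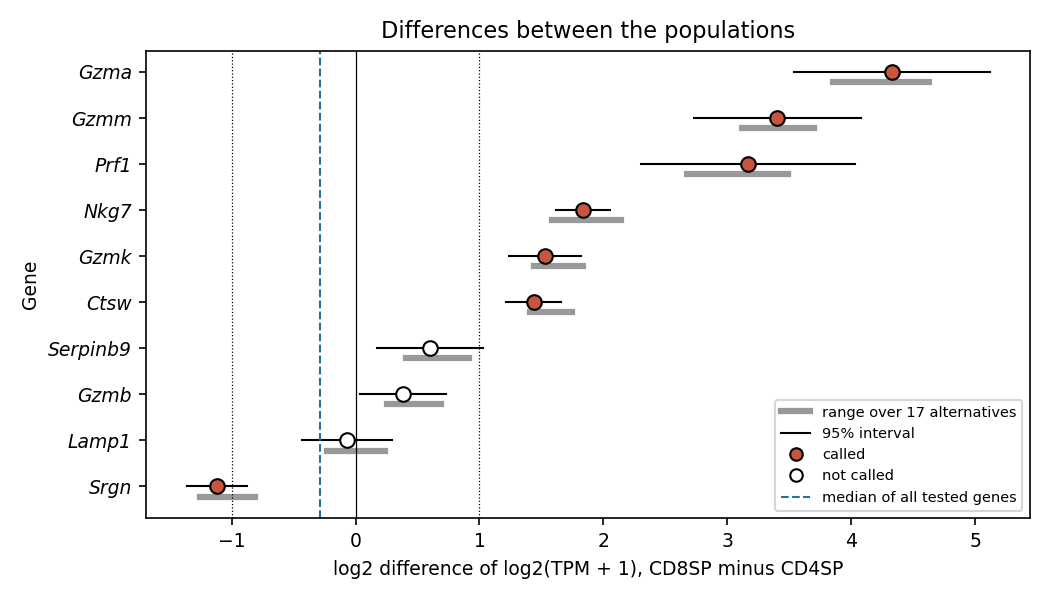
Log2 differences of log2(TPM + 1), CD8SP minus CD4SP, of the 10 genes, with the 95% interval in black, the range over 17 alternatives in grey below it, filled points for called genes and open points for the others. The dashed line marks the median of all tested genes at -0.28 and the dotted lines mark 2-fold. Gzma, Gzmm and Prf1 stand farthest to the right at 4.33, 3.40 and 3.16, and Srgn lies left of the 2-fold line at -1.12.

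The order of levels changed between the populations. In CD4SP iT cells it ran from Srgn through Nkg7, Ctsw and Gzmb to Lamp1, Gzmk and Gzma, then Serpinb9, Prf1 and Gzmm. The ranges of Lamp1 and Gzmk, of Gzmk and Gzma, and of Prf1 and Gzmm overlapped there. Within each CD4SP library Lamp1 was nevertheless above Gzmk. The order of Gzmk and Gzma, and that of Prf1 and Gzmm, changed from library to library. In CD8SP iT cells it ran from Nkg7 through Ctsw and Gzma, which overlapped, to Srgn, Gzmb, Gzmk and Lamp1, then Gzmm and Prf1, which overlapped, and Serpinb9. The coefficient of variation was larger in CD4SP libraries for the genes of largest difference, at 47.2% for Gzma, 46.6% for Gzmm and 57.4% for Prf1 against 10.6%, 20.9% and 9.27% in CD8SP libraries. For Nkg7 and Ctsw it was between 2.28% and 6.12% in both populations.

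Genes that act with the granules, other effector molecules and transcription factors were called in both directions. Lists of 56 such genes in 6 groups held 42 that were tested, of which 2 were called higher in CD8SP, 7 higher in CD4SP and 33 not, where the shares of all tested genes were 1.8% and 7.92%, with a median log2 difference of -0.44 beside -0.28 for all genes. After median-of-ratios rescaling the counts were 3 and 5, and after quantile normalization 3 and 4. Among 9 tested genes of granule maturation, Cst7, cystatin F, an inhibitor of cathepsins in the granule, was called higher in CD8SP (248 to 261 TPM in CD4SP against 525 to 554 TPM in CD8SP, log2 difference 1.10, SE 0.097, adjusted p = 0.000238 in limma). Ctsc, the dipeptidyl peptidase that activates granzymes by trimming, was not called (log2 difference 0.0080, 95% interval -0.47 to 0.48, adjusted p = 0.981 in limma). Nor were the sorting receptor M6pr (log2 difference -0.67, adjusted p = 0.0114 in limma, under 2-fold) and the calcium-binding chaperone Calr (log2 difference -0.26, adjusted p = 0.176 in limma).

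Of 13 tested genes of granule exocytosis, 1 was called. Stx11, the syntaxin that acts in granule fusion, was called higher in CD4SP at 53.7, 42.6 and 61.1 TPM against 18.2, 17.6 and 11.2 TPM (log2 difference -1.69, SE 0.22, adjusted p = 0.00168 in limma). Rab27a, the small GTPase that docks granules, had 25.2, 23.5 and 17.2 TPM in CD4SP against 9.69, 12.8 and 10.4 TPM in CD8SP libraries and missed the fold required (log2 difference -0.93, SE 0.21, adjusted p = 0.0160 in limma). It passed without CD4SP replicate 3 and without CD8SP replicate 2, at -1.09 and -1.04, and over all alternatives its adjusted p was 0.0106 to 0.106 and its difference -1.09 to -0.60. The vesicle SNARE Vamp8 (log2 difference -0.70, adjusted p = 0.0149 in limma), the Stx11 partner Stxbp2 (log2 difference -0.18, adjusted p = 0.320 in limma) and the synaptotagmin-like Sytl3 (log2 difference -0.036, adjusted p = 0.901 in limma) were not called. Vamp7 and Syt7 were listed at 0 in all libraries.

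Of 5 tested serpins related to Serpinb9, Serpina3f was called higher in CD4SP (31.1 to 39.3 TPM in CD4SP against 4.14 to 18.03 TPM in CD8SP, log2 difference -1.64, SE 0.44, adjusted p = 0.0329 in limma), and it was not called in 7 of the 17 alternatives, among them those without CD4SP replicate 1 (-1.62) and without CD4SP replicate 3 (-1.57). Without CD8SP replicate 3, its lowest library, the difference was -1.04. Serpina3g (log2 difference -0.63, adjusted p = 0.0322 in limma) and Serpinb6a (log2 difference -0.29, adjusted p = 0.240 in limma) were not called. Of 5 other effector molecules, Lta, lymphotoxin alpha, was called higher in CD4SP (80.9, 78.0 and 82.9 TPM against 24.8, 28.0 and 15.5 TPM, log2 difference -1.82, SE 0.21, adjusted p = 0.000946 in limma). Fas ligand, Fasl (log2 difference 0.58, adjusted p = 0.305 in limma, 0.26 without CD4SP replicate 1, 0.34 without CD8SP replicate 1 and 1.001 without CD8SP replicate 2), interferon gamma, Ifng (log2 difference 0.27, adjusted p = 0.144 in limma), and TRAIL, Tnfsf10 (log2 difference -0.30, adjusted p = 0.261 in limma), were not called.

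Transcription factors known to act on granule genes split in direction. Eomes, a T-box factor that promotes perforin and granzyme expression, was called higher in CD8SP (8.19 to 10.6 TPM in CD4SP against 49.9 to 55.4 TPM in CD8SP, log2 difference 2.37, SE 0.16, adjusted p = 5.52e-05 in limma). Prdm1, which encodes Blimp-1, was called higher in CD4SP (13.5, 12.9 and 13.6 TPM against 3.67, 3.95 and 3.59 TPM, log2 difference -1.59, SE 0.19, adjusted p = 0.000998 in limma). Also called higher in CD4SP were Nfil3 (log2 difference -1.32, adjusted p = 0.0126 in limma, with the call lost at -1.16 without CD4SP replicate 3 and at -0.98 after quantile normalization), Bhlhe40 (log2 difference -1.31, adjusted p = 0.00420 in limma) and Irf4 (log2 difference -1.19, adjusted p = 0.0306 in limma). The call of Irf4 was lost in 8 of the 17 alternatives, among them those without CD4SP replicate 1 (-0.88), CD4SP replicate 3 (-1.25), CD8SP replicate 2 (-1.23) or CD8SP replicate 3 (-1.01). The other 4 tested regulators were not called, the T-box factor Tbx21 and Runx3 among them, at log2 differences of -0.020 (adjusted p = 0.956 in limma) and -0.068 (adjusted p = 0.803 in limma).

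**Figure D4:**
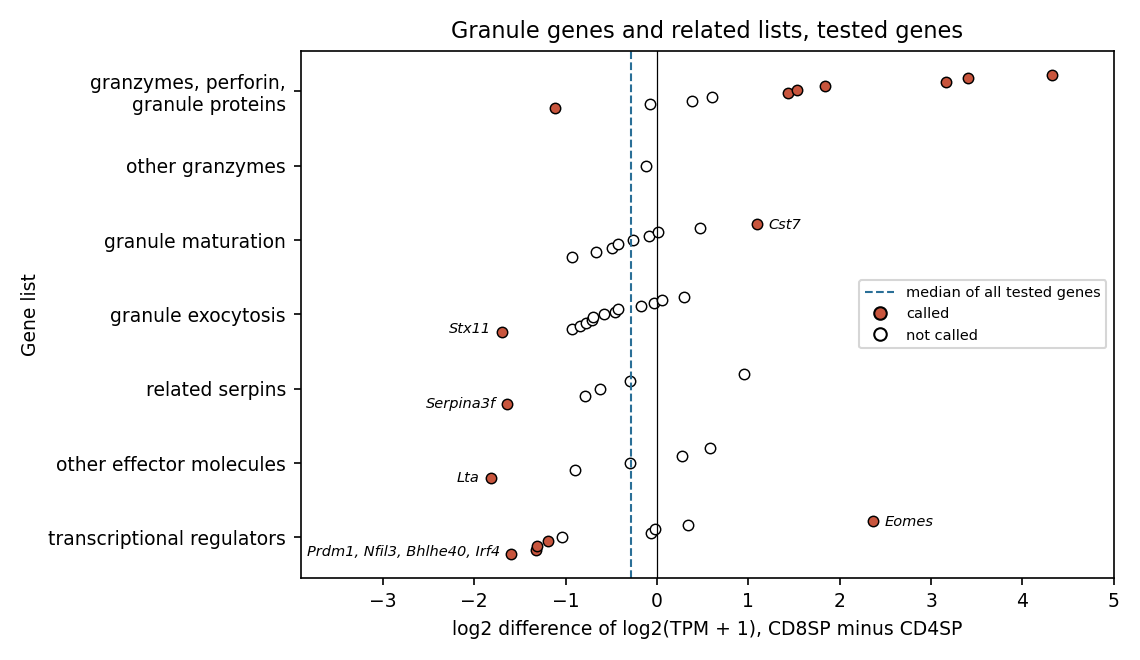
Log2 differences, CD8SP minus CD4SP, of the tested genes of the granule machinery (top line) and of 6 related lists, with filled points for called genes and the dashed line at the median of all tested genes. Outside the top line only Cst7 at 1.10 and Eomes at 2.37 were called on the right, and 7 genes were called on the left.

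Markers of other cells that carry granules moved with some of these results. Of 9 NK cell markers, Ncr1, Klra4 and Klra8 were listed at 0 in all libraries, 5 were tested and 3 were called higher in CD8SP. These were Klre1 (9.28, 3.77 and 5.46 TPM against 37.2, 43.0 and 46.2 TPM, adjusted p = 0.000534 in limma), Klrb1c (0.682 to 1.82 TPM against 5.22 to 9.14 TPM, adjusted p = 0.00426 in limma) and Klra9 (listed at 0 in CD4SP, 5.56, 5.25 and 15.9 TPM in CD8SP). Klra9 passed the filter on low values only through its CD8SP libraries. The filter thus fixed the direction of its call, and no conclusion is drawn from it. Tyrobp (7.49 to 9.54 TPM against 4.92 to 10.7 TPM, adjusted p = 0.749 in limma) and Fcer1g (0 to 2.91 TPM against 1.004 to 4.78 TPM, adjusted p = 0.470 in limma) were not called, and Klri2, which was not tested, had 2.62, 0 and 4.77 TPM in CD4SP against 0.166, 0.293 and 0.921 TPM in CD8SP libraries. The list summed to 11.9 to 25.1 TPM in CD4SP and 63.9 to 74.8 TPM in CD8SP libraries, beside a sum of 5556 to 5808 TPM and 11877 to 12308 TPM for the 10 granule genes. Some of these receptors are also known from CD8+ T cells, and their part in the granule gene results was not tested. Of 7 γδ T cell markers, the receptor genes Trdc, Tcrg-C1, Tcrg-C2 and Tcrg-C4 had no row in the expression table, so γδ T cell content could not be judged from them. Of the 3 in the table, Sox13 and Zbtb16 were listed at 0 in all libraries. Cd163l1 was called higher in CD8SP (23.1 to 36.2 TPM against 56.0 to 76.9 TPM, log2 difference 1.21, adjusted p = 0.00476 in limma), and its part was not tested either.

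On the CD4SP side, 3 of 4 regulatory T cell markers, Il2ra, Ctla4 and Tnfrsf18, were called higher in CD4SP, and the list summed to 1625 to 1956 TPM in CD4SP and 292 to 338 TPM in CD8SP libraries. Foxp3, the fourth, was listed at 141.6, 6.56 and 167.2 TPM in CD4SP and was not called (adjusted p = 0.1005 in limma), and without CD4SP replicate 2 its log2 difference was -4.06 (adjusted p = 9.44e-05 in limma). It was -1.95 (adjusted p = 0.262 in limma) without CD4SP replicate 1 and -1.83 (adjusted p = 0.285 in limma) without CD4SP replicate 3. Foxp3 was also called with the replicate number as a block (-2.61, adjusted p = 0.0438 in limma) and with library weights (-3.65, adjusted p = 0.00153 in limma). The lowest of these weights, 0.233, was that of CD4SP replicate 2. In that replicate Il2ra, Ctla4 and Tnfrsf18 were at 92.0, 814 and 712 TPM. In CD4SP replicates 1 and 3 they were at 95.7 and 82.1, 866 and 937, and 835 and 769 TPM. These 3 markers thus did not follow Foxp3 across the CD4SP libraries, and the list sum was not taken as a measure of regulatory T cells. The part of regulatory T cells in the CD4SP levels of the granule genes was not tested. Of other cells that hold serglycin, all 5 mast cell and basophil markers and S100a8 and S100a9 of neutrophils had 0 TPM in every library. Of 4 megakaryocyte and platelet genes Pf4 and Ppbp were at 0 throughout, and with Gp1bb and Itga2b the list summed to 0.186 to 1.70 TPM in CD4SP and 0.351 to 0.489 TPM in CD8SP libraries. Myeloid markers summed to 17.7 to 32.7 TPM in CD4SP and 20.9 to 24.6 TPM in CD8SP libraries, with 2 tested: Lyz2 was called higher in CD4SP (adjusted p = 0.00872 in limma) and Cd68 higher in CD8SP (adjusted p = 0.0127 in limma, 0.0560 without CD8SP replicate 3).

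Genes whose profile over the 6 libraries was nearest to that of each called granule gene were taken by Euclidean distance of centred log2(TPM + 1) values, a description with no test since the split into populations dominates it. For Gzma these were Crtam, Haao and Samd3 (distances 1.47 to 1.54). Crtam, a class I-restricted T cell-associated adhesion molecule, had 5.55, 9.39 and 6.07 TPM in CD4SP against 87.0, 91.7 and 81.4 TPM in CD8SP libraries. For Gzmm they were Itgax, Klrc2 and Tm6sf1 (0.770 to 0.901), of which Klrc2, an activating lectin-like receptor, was listed at 0 in CD4SP and reached 7.07, 7.69 and 11.0 TPM in CD8SP libraries. For Prf1 they were Dapk2, Aqp9 and Klre1 (0.856 to 0.939). For Nkg7 they were Glrp1, Amica1 and 4921525O09Rik (0.250 to 0.345), and for Gzmk they were Sidt1, Pde2a and Dock5 (0.222 to 0.246). Ctsw shared Sidt1 and Pde2a with Gzmk, with Nmnat2 between them (0.158 to 0.246). For Srgn the nearest were Hivep2, Ptpn7 and Ncoa7 (0.0916 to 0.141), and Ptpn7, a phosphatase of lymphocytes, had 112.8, 117.7 and 136.9 TPM in CD4SP against 51.8, 54.6 and 54.2 TPM in CD8SP libraries. Glrp1, Itgax, Klrc2 and Nmnat2 passed the filter on low values only through their CD8SP libraries, which fixed their direction. Glrp1, for instance, had 0.198, 0 and 0 TPM in CD4SP against 3.46, 3.06 and 2.40 TPM in CD8SP libraries. For such low genes a small distance does not mean a similar ratio of TPM.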

How the data were processed

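Polyadenylated RNA of 3 CD4SP and 3 CD8SP aliquots of 1000 sorted splenic iT cells was amplified with a whole-transcriptome kit and sequenced. The authors aligned reads to mm10 with HISAT2 2.1.0, estimated expression with StringTie 1.3.4 and deposited it as TPM, 1 column per library. TPM keeps no depth, an exact 0 can be a failed estimate, and a transcript class that grows in a library lowers all others. The use of strand and the sharing of reads between similar genes are not given in the sources used here.

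Groups came from the sample titles. Tested were the 10476 genes that reached 1 TPM in 3 or more libraries, on log2(TPM + 1), a scale that understates changes of low genes, in limma 3.58.1 (R 4.3.3, lmFit and eBayes with trend), with Benjamini-Hochberg adjustment over all of them. The design had the population as its only term, and the method was tested on simulated data. The study's own thresholds, an adjusted p of 0.05 and 2-fold, were kept, and limma took the place of its count test, which needs counts. The 17 alternatives changed the pseudocount (0.1), dropped the filter or raised it to 5 TPM, and used median-of-ratios scaling, quantile scaling, removal of 87 ribosomal protein rows, no trend, library weights, a replicate block, adjusted p alone, CD8SP replicates 1 and 2 averaged, and each library left out in turn.

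The 10 genes and the gene lists were chosen with earlier results of these data known. Named were all 10 genes, up to 4 genes per related list (called genes of largest difference, then those of highest mean TPM), neighbouring genes and the 3 nearest profiles of each called gene. Rab27a, Tbx21, Runx3, Irf4 and single cell type markers were named after their values were seen. Positions are from GENCODE M21 on GRCm38, 1-based, copies were searched with blastn 2.17.0, and promoters are from RefSeq.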

Additional observations from a re-analysis of the deposited data

How the results depend on the processing

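Under the 17 alternatives the calls and directions of Gzma, Gzmk, Gzmm, Prf1, Nkg7 and Ctsw held in each, as did the lack of a call for Gzmb, for Serpinb9 and for Lamp1, which alone among the 10 changed sign. Srgn was not called after median-of-ratios rescaling (-0.81) or without ribosomal protein genes (-0.96), both under 2-fold, which left 0 of the 10 genes called higher in CD4SP in either. When the replicate number was added as a block, the Srgn difference was -1.12 (adjusted p = 0.00129 in limma), no call of the 10 genes changed, Foxp3 became a call, and 997 genes in all were called. CD8SP replicates 1 and 2 had the highest library weights, at 4.59 and 2.84. With these libraries averaged, 823 genes in all were called and no call of the 10 genes changed. Deviations of same-numbered libraries correlated at 0.0515, -0.0168 and 0.0887, and the numbers were not taken to pair the libraries. By adjusted p alone, 2183 genes in all and 18 of the related lists were called, 16 of the latter higher in CD4SP. With the fold kept, that count of 7 was 4 after quantile normalization. Signs of small differences changed. After median-of-ratios rescaling they were 0.23 for Lamp1, 0.13 for Gzmc, 0.045 for Calr, 0.13 for Stxbp2, 0.27 for Sytl3, 0.26 for Tbx21, 0.23 for Runx3 and 0.014 for Serpinb6a. After quantile normalization they were 0.15 for Lamp1, 0.25 for Gzmc, 0.061 for Stxbp2, 0.20 for Sytl3, 0.34 for Tbx21, 0.20 for Runx3 and 0.052 for Tnfsf10. Without ribosomal protein genes they were 0.092 for Lamp1, 0.012 for Gzmc, 0.13 for Tbx21, 0.094 for Runx3 and 0.13 for Sytl3. With library weights they were 0.15 for Gzmc, -0.14 for Ctsc and 0.041 for Sytl3, and with CD8SP replicates 1 and 2 averaged -0.0029 for Ctsc and 0.038 for Tbx21. Leaving out single libraries gave -0.23 to 0.058 for Lamp1, -0.30 to 0.24 for Gzmc, -0.24 to 0.15 for Ctsc, -0.18 to 0.091 for Tbx21, -0.17 to 0.066 for Runx3 and -0.15 to 0.13 for Sytl3. Differences of genes not called also moved in size. They ranged over the alternatives from -0.84 to -0.39 for Vamp8 (adjusted p in limma 0.00286 to 0.235), -0.76 to -0.36 for M6pr (0.00166 to 0.0460), -0.76 to -0.32 for Serpina3g (0.00549 to 0.116), 0.22 to 0.58 for Ifng (0.0234 to 0.358), 0.21 to 0.58 for Cdc34 (0.00822 to 0.425) and 0.071 to 0.40 for Bsg (0.0300 to 0.729). The cause was not tested. TPM keep no depth, so no detection limit could be set for genes listed at 0.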
